A study of Arabidopsis thaliana with 8 samples.

Results

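The strongest high tiles of an H3K4me2 profile of Arabidopsis thaliana chromosome 4 were 511 tiles whose mean log ratio lay more than 2 above the array median. They were chosen among 17048 measured tiles on 182 plates of the tile series TA, TB and TC, of 21296 tiles measured in all. Plates TA21 to TA30, TA37 to TA51, TA53, TA57 to TA59, TA62, TA63 and TC17 to TC30, on which most tiles are low, had been set aside. They were chosen by the mean of the log ratio over all 4 replicates, so the level and the number of these tiles are a description and not a test. Chromatin came from whole seedlings of the accession C24, aged 10 days and without treatment, grown in liquid medium at 22 degrees C under a photoperiod of 16 hours. Chromatin of 50 µg per replicate was immunoprecipitated (IP) with an antibody against H3K4me2 and hybridised against its own input in replicates I to IV, each on a dye-swap pair of arrays. All 4 replicates were C24 alone, with no mutant, transgene, hybrid or treatment among them. Whole seedlings mix all their cell types, and nothing in the labels tells if the replicates came from separate cultures, so the spread between replicates may be technical.

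H3K4me2 is histone H3 carrying a pair of methyl groups on lysine 4. SET-domain methyltransferases place methyl groups on this lysine and demethylases remove them. In Arabidopsis the mark lies mainly over genes of euchromatin, active and inactive ones, and is scarce over transposons and silent heterochromatin.

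The values are processed log ratios of the channels of an array. The sources used here give neither the log base nor which of IP and input stood on top. High therefore means above the array median as deposited, in deposited log ratio units, and is not called enriched. The numbers were identical in both arrays of every dye swap, so each swap counted as 1 sample and n was 4. The tables at hand link no tile with a gene, a coordinate or a sequence. Tiles are named by an ID made of series, plate, well row and well column (TB65A08 is well A08 of plate TB65), and distances are counted in wells along the rows of consecutive plates.

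Most of the high tiles lay close to the threshold, with a short tail of far higher ones. Their median was 2.23, with quartiles of 2.10 and 2.44, and 404 of the 511 were at or under 2.5. Above 3 there were 28 tiles, above 3.5 there were 7, and above 4 there were 3. The number depends on the zero: with each replicate centred on its mode, 69 tiles passed 2, and with the values as deposited 72. The members just above the threshold were TA16E04 and TB80H10, both at 2.0007, and TC11B05 at 2.0012. The tiles just under it were TB71B05 at 1.9995, TB44E05 at 1.9994 and TB20C06 at 1.9993.

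TB65A08 was the highest tile, at 4.94, 4.64, 4.75 and 5.07 in replicates I to IV. TA94E02 followed at 4.90, 4.94, 4.58 and 4.80. TA33E02 stood at 4.31, 4.45, 4.26 and 4.27. In these 3 tiles every replicate was above 4, and the SD over replicates was 0.19, 0.16 and 0.09. TB26C04 had 3.85, 4.20, 3.75 and 4.04, with a mean of 3.96 ± 0.20 (SD, n = 4). TB66F04 averaged 3.58 ± 0.32, TB58E02 3.54 ± 0.37 and TB85C11 3.52 ± 0.09. TB58C12, 14 wells before TB58E02 on the same plate, averaged 3.47 ± 0.28. The other tiles among the 12 highest were TA87C05 at 3.45 ± 0.44, TB72G01 at 3.39 ± 0.20, TA85F04 at 3.34 ± 0.84 and TC05B07 at 3.31 ± 0.47. TC05B07 was the one TC tile of these 12, against 4 of TA and 7 of TB.

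**Figure D1:**
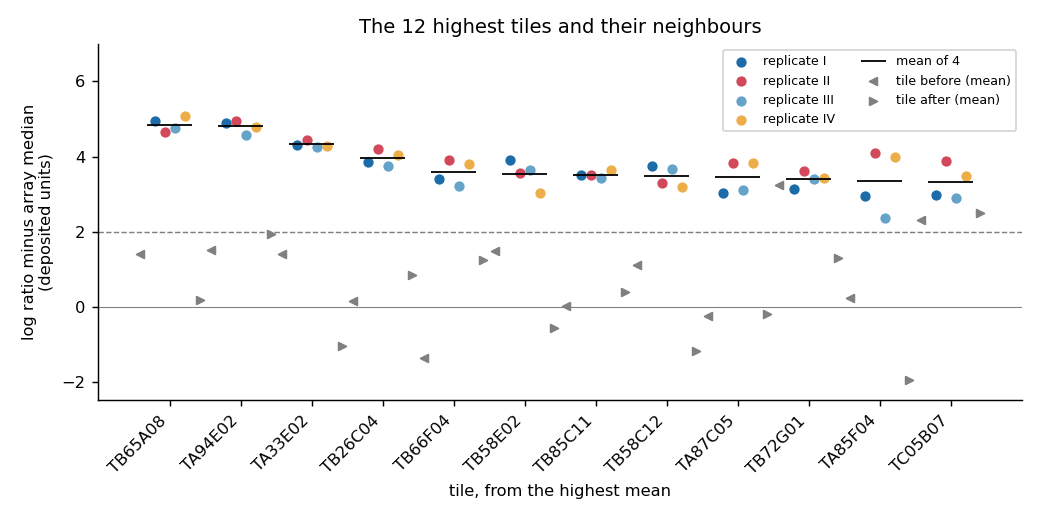
Log ratio minus the array median (vertical axis, deposited units) for the 12 highest tiles (horizontal axis), with a point for each replicate, a bar for the mean of 4, and grey triangles for the mean of the tile before and after. TB65A08, TA94E02 and TA33E02 lie above 4 in every replicate, and most neighbours lie below the dashed threshold at 2.

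The replicates gave similar but unequal levels. Over the 511 tiles, the medians of I to IV were 2.20, 2.38, 2.21 and 2.31. Above 2 were 372 tiles in I, as many in III, 466 in II and 442 in IV. All 511 were above 1 in every replicate, and the lowest single value was 1.28. Of the 511 tiles, 256 were above 2 in every replicate, 124 in 3 replicates, 125 in 2 and 6 in 1. The median SD over replicates was 0.20 for the high tiles and 0.21 for the other tiles of the same plates. By limma's moderated test, 511 of 511 had a Benjamini-Hochberg adjusted p under 0.05 above the array median. That test called 42.2% of all tiles above the median, and it rests on the values that chose the tiles.

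The level was also read in a replicate that took no part in the choice. With the choice made on II, III and IV, 564 tiles qualified, and 348 of them (61.7%) were above 2 in I. With III left out the count was 342 of 562 (60.9%). It was 405 of 475 (85.3%) with II left out and 398 of 495 (80.4%) with IV left out. In the 17048 tiles of the same plates, 2.86% (I), 4.72% (II), 3.04% (III) and 3.98% (IV) were above 2. The median level in the replicate left out was 2.12 for I, 2.36 for II, 2.14 for III and 2.28 for IV. The left-out replicates are not fully independent of the choice, because I resembles III and II resembles IV.

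That resemblance was visible in the high tiles themselves. The median size of the difference between I and III was 0.13 and between II and IV 0.12, whereas the mean of II and IV differed from the mean of I and III by a median size of 0.28. The mean of II and IV exceeded that of I and III by more than 0.5 in 95 tiles and fell short of it by more than 0.5 in 19. The median of this difference was 0.14 in the high tiles and -0.01 in the other tiles of the same plates. In 87 tiles the values of II and IV were above 2 and those of I and III were not, and in 24 tiles it was the other way round. Over the 17048 measured tiles of the same plates, 804 were above 2 in II and 679 in IV, against 487 in I and 519 in III. Differences above 0.5 and values above 2 in a single pair were not counted over the other tiles. These counts are therefore not read as a trait of the high tiles. TB28H11 had 1.66, 3.07, 1.71 and 3.09 in replicates I to IV. TA85F04 had 2.94, 4.08, 2.35 and 3.99 in I to IV. TB22H12 (1.36, 2.89, 1.35 and 2.54 in I to IV), TB40H07 (1.94, 2.92, 1.33 and 2.97) and TB46F05 (1.67, 2.88, 1.52 and 3.001) showed the same split. In each of these 5 tiles, the ones with the largest SD, both II and IV lay above both I and III. The labels do not say what the members of a pair share, and its part in these levels was not tested.

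**Figure D2:**
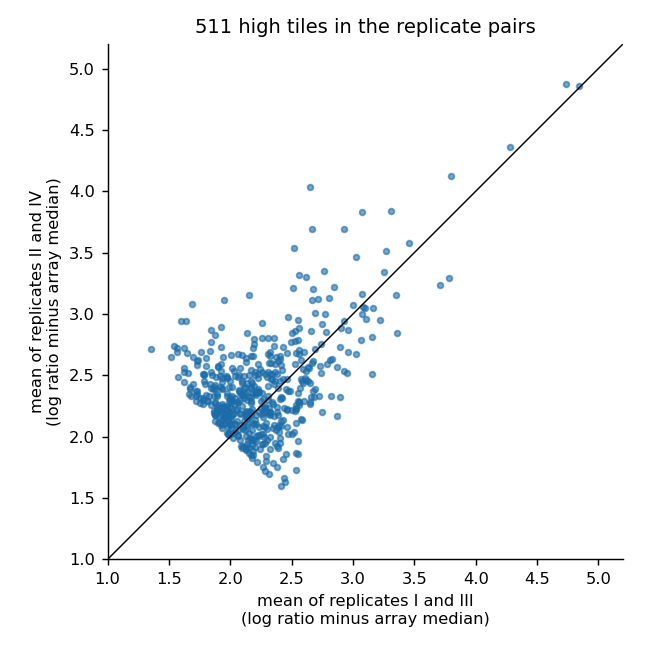
Mean of replicates II and IV (vertical axis) against the mean of I and III (horizontal axis) for the 511 high tiles, both as log ratio minus the array median, with the line of equality. In 95 tiles the point lies more than 0.5 above the line and in 19 more than 0.5 below it; the straight lower left edge is the threshold of 2 on the mean.

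Most runs of high tiles were 1 tile wide, a width that depends on the threshold. Consecutive members formed 422 runs, of which 349 (82.7%) were 1 tile wide, 59 were 2 tiles, 13 were 3 tiles and 1 was 5 tiles, a mean of 1.21. With the threshold applied to each replicate alone, the mean lengths were 1.15 (I), 1.27 (II), 1.18 (III) and 1.24 (IV). Thresholds of 1.5 and 2.5 on the mean gave 1.46 and 1.06, and requiring 2 in every replicate gave 1.13. Run lengths were not compared with a random placement of as many tiles. Around the peak of a run, the tiles above 50% of the peak's level numbered 3 at the median, with quartiles of 1 and 4. In 107 runs no measured tile beside the peak was above 50% of it, and in 113 runs more than 3 tiles were, the peak included. A missing well ended the count, so widths next to such a well may be too small. TB26A05, among the 107, had no measured neighbour. The stretch that stayed above 1 had a median of 3 tiles and at most 16, around TB36E12. The stretch above the array median had a median of 8 tiles, with quartiles of 4 and 15, and at most 64, around TB38B04. Neighbouring runs can share such a stretch, which then counts for each of them.

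Low tiles of the same plates, with a mean below -2, came in longer runs. There were 723 of them in 381 runs, the longest of 17 tiles. Applied to each replicate alone, the run length averaged 1.21 ± 0.06 tiles for high tiles and 1.85 ± 0.05 for low tiles (SD, n = 4). High runs were shorter in 4 of 4 replicates, which is a description, since the run lengths come from the values that chose the tiles. The zero is the array median, and the share of tiles past a fixed distance on either side moves with it. Centred on the mode, the run length averaged 1.05 ± 0.04 tiles for high tiles and 1.87 ± 0.08 for low tiles, and with the values as deposited 1.08 ± 0.06 and 1.85 ± 0.08 (SD, n = 4).

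**Figure D3:**
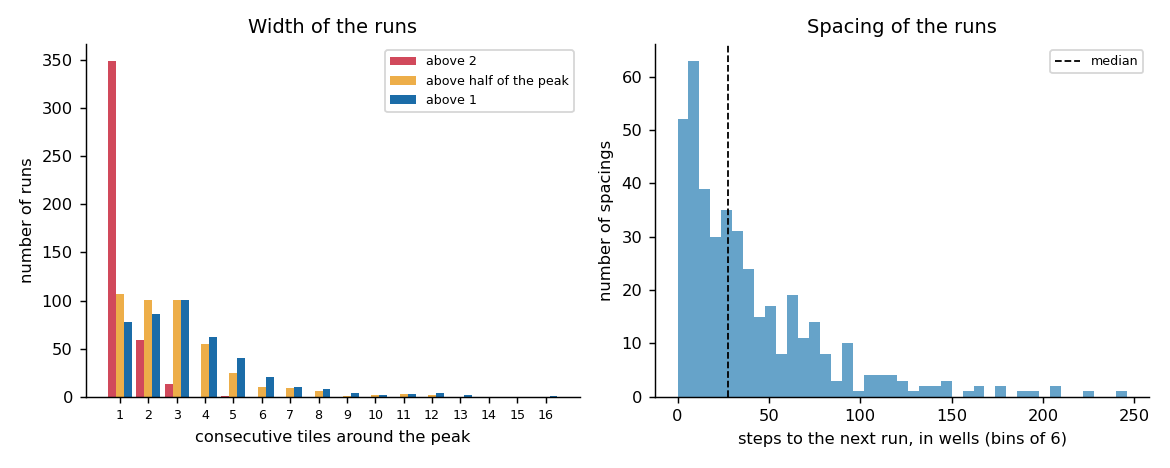
Left, number of runs (vertical axis) by the number of consecutive tiles around the peak (horizontal axis) that are above 2, above 50% of the peak, or above 1. Right, number of spacings (vertical axis) by the steps in wells to the next run (horizontal axis). Of 422 runs, 349 are 1 tile wide above 2, and the median spacing is 27.5 wells.

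The longest run was TB55C11 to TB55D03, with means of 2.26, 2.21, 2.56, 2.65 and 2.02. It began beside TB55C10 at 1.02 and ended sharply at TB55D04, which had -0.12, -0.03, 0.04 and 0.01 in I to IV. The highest runs of 3 tiles were TC05B06 to TC05B08, at 2.30, 3.31 and 2.49, and TB54C11 to TB54D01, at 2.37, 3.04 and 2.25. TA67A02 to TA67A04 had 2.04, 2.05 and 3.03, and TB48C03 to TB48C05 had 2.10, 2.57 and 2.43. All 5 runs thus had a peak below the 10 highest tiles, and TC05B07 was the one tile of the 12 highest within a run of 3 or more. Runs of this length were few, 13 of 3 tiles and 1 of 5 among 422, so neither statement is read as a trait. TB72G01 belonged to a run of 2, beside TB72F12 at 3.24.

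Of the 511 tiles, 337 stood alone between measured tiles that were not members. They exceeded the mean of their neighbours by a median of 1.26, with quartiles of 0.89 and 1.77. Both neighbours were above 1 around 105 of them. Both were below the array median around 8, and 1 neighbour was below it around 77.

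The largest step was at TA74C10, which had 2.32, 2.66, 2.69 and 3.03 in I to IV. TA74C09 before it had -3.38, -3.55, -3.53 and -3.93, and TA74C11 after it averaged 0.11. TA95G07 averaged 2.52 ± 0.14 (SD, n = 4) next to TA95G06 at -3.66 ± 0.29, and TA04D10 averaged 2.04 ± 0.17 next to TA04D11 at -3.69 ± 0.36. In all 4 replicates these tiles were more than 5 above the neighbour on their low side. TA85F04 lay between TA85F03 at 0.21 and TA85F05 at -1.95, and TA33E02 between TA33E01 at 1.39 and TA33E03 at -1.04. Of all high tiles, 27 had a neighbour below -1, 9 had one below -2 and 5 had one below -3. Deep low values were rarer beside high tiles than elsewhere on the same plates: 1.11% of the nearest tiles that were not members were below -2, against 4.54% of the tiles that were neither high nor next to a high tile. The 5 tiles beside a value below -3 were all in TA, and 3 of them were on plate TA95: TA95G07, TA95E03 at 2.99 beside TA95E02 at -3.25, and TA95H09 at 2.73 beside TA95H10 at -3.33. Plate TA95 had a median of -0.80. Beside a value below -2 were 5 of 164 high tiles in TA, 4 of 324 in TB and 0 of 23 in TC. Tiles below -3 were not counted by series or plate over all tiles, so the 5 are not read as a trait of TA.

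Tiles next to a high tile were themselves raised, and the level fell over the first 3 tiles and changed less beyond. The nearest tiles that were not members, 814 in all, had medians of 1.04, 1.15, 1.05 and 1.12 in I to IV. The remaining 15723 tiles of the same plates had 0.20, 0.23, 0.21 and 0.21. Flanks exceeded the rest by 0.87 ± 0.04 in 4 of 4 replicates (SD, n = 4; exact sign-flip permutation test, two-sided, p = 0.125, which is the smallest that 4 replicates allow). High tiles lie more often on plates with high medians, so the difference was also taken after subtracting each plate's median, where it was 0.63 ± 0.03. When wells were read down the columns of the plates in place of along the rows, it was 0.17. By limma's adjusted p under 0.05, 646 flank tiles (79.4%) were above the array median and 77 (9.46%) below it, against 47.3% above and 33.8% below among the rest. Below the array median lay 13.8% of flank tiles, against 42.9% of the rest.

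With all measured tiles counted, high tiles included, the mean level 1 step away was 1.16 ± 0.06 (SD, n = 4). At 2 steps it was 0.67 ± 0.05 and at 3 steps 0.46 ± 0.05, while from 6 to 12 steps it was 0.39 ± 0.03. Flank tiles on the side of lower numbers had a median of 1.17 ± 0.05 and those on the side of higher numbers 1.04 ± 0.06. The side of lower numbers was higher by 0.13 ± 0.01, in 4 of 4 replicates (exact sign-flip test, p = 0.125).

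The 1413 tiles of the same plates with a mean above 1.5 and up to 2 had similar surroundings. One step away, the level was 1.16 ± 0.06 around high tiles and 1.04 ± 0.07 around these less high tiles, a difference of 0.11 ± 0.01 (SD, n = 4). High tiles count among these neighbours. Of 501 tiles measured 1 step before a high tile, 412 were not members, and of 505 after it, 416 were not. The difference at 1 step therefore rests in part on the values that chose the tiles, and is a description. At 2 steps the levels of 0.67 ± 0.05 and 0.68 ± 0.08 differed by -0.01 ± 0.02, within the spread between replicates (exact permutation p = 0.375). From 6 to 12 steps the level was 0.39 ± 0.03 around high tiles and 0.44 ± 0.03 around the less high ones. There the surroundings of high tiles were lower by 0.05 ± 0.01 in 4 of 4 replicates (exact permutation p = 0.125). Neighbours that were not high tiles were not compared between the groups. The higher level 1 step away is therefore not read as a trait of the surroundings.

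**Figure D4:**
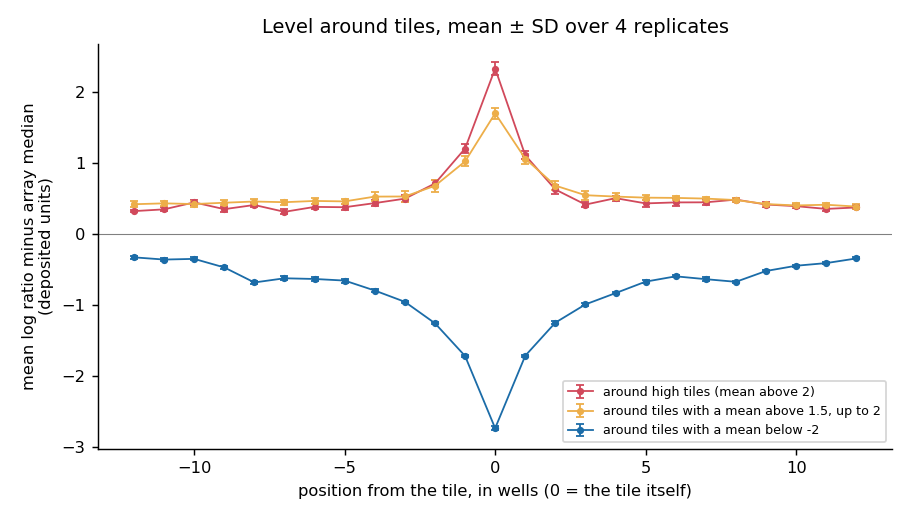
Mean log ratio minus the array median (vertical axis, deposited units) at each position from -12 to 12 wells (horizontal axis) around high tiles, around tiles with a mean above 1.5 and up to 2, and around tiles with a mean below -2. Points are means and bars SD over 4 replicates. Around high tiles the level is 1.16 at 1 step and 0.46 at 3 steps, with high tiles counted among the neighbours.

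Spacings between runs of high tiles ranged from 2 to 241 wells, and were not compared with a random placement of the runs. Between neighbouring runs of an unbroken stretch of plates there were 414 spacings, with a median of 27.5 wells, a mean of 39.9 and quartiles of 10 and 57. The next run began within 5 wells in 52 cases (12.6%) and within 12 wells, a row of the plate, in 119 (28.7%). More than 96 wells, a full plate, separated neighbouring runs in 35 cases. The median was 33 wells in TA, 26 in TB and 47 in TC. With the threshold applied to each replicate alone, the median spacings were 28 (I), 16 (II), 24 (III) and 18 (IV), and the spacing was shorter where more tiles passed 2 (804 in II and 679 in IV, against 487 in I and 519 in III).

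The longest interval without a high tile was 241 wells, from TB31H02 at 2.12 to TB34D03 at 2.60. It held 239 measured tiles with a median of 0.09 and covered plates TB32 and TB33 whole. The next were 222 wells from TC00F05 to TC02H11, with a median of 0.03 between them, and 209 wells from TB97G07 to TB99H12, with a median of 0.06. The interval from TC08A09 to TC10B09, of 204 wells, had a median of 0.53. The longest intervals were thus not all low.

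High tiles were found on 162 of the 182 plates. A plate held a median of 2, and 84 plates held 1 or 2, 62 held 3 to 6, and 16 held 7 or more. Those 16 plates had 8.83% of the measured tiles and 26.0% of the high ones (133 of 511). They were picked by their number of high tiles, so the larger share of high tiles follows from the choice. Of the 20 plates with none, 9 were in TA, 7 in TB and 4 in TC. Their medians ran from -0.85 to 0.76, and those of the 16 plates from 0.33 to 1.01. Across the 182 plates the number of high tiles had a Pearson's r of 0.45 with the plate median, which is computed in part from the same tiles.

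Plate TB06 had the most, 14 of 95 measured tiles, with 15, 18, 13 and 13 tiles above 2 in I to IV. They formed 10 runs from TB06A03 to TB06H12, led by TB06E11 at 3.11 and TB06G11 at 3.07. TA90 had 12 of 93, with 6, 14, 10 and 8 tiles above 2 in I to IV, so its count depended more on the replicate. Its highest tile was TA90H05 at 3.03 ± 0.61 (SD, n = 4). TB16 had 11 of 96, with 8 tiles above 2 in I and 11 in each of the others, led by TB16G04 at 2.92. On these 3 plates the high tiles were spread over many wells, in 10, 8 and 8 runs. None of the 12 highest tiles lay on them. The plates held only 14, 12 and 11 of the 511 high tiles, so this absence is not read as a trait.

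**Figure D5:**
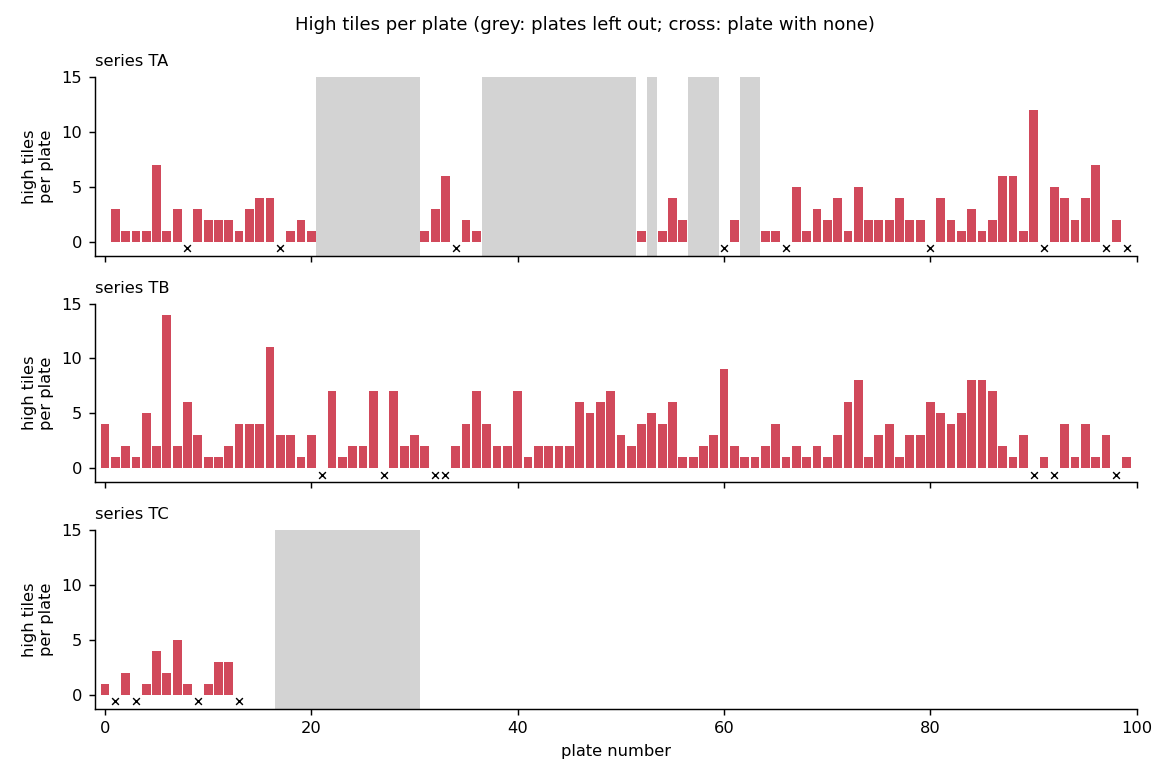
Number of high tiles per plate (vertical axis) by plate number (horizontal axis) in the series TA, TB and TC, with plates left out in grey and plates with none marked by a cross. TB06 (14), TA90 (12) and TB16 (11) hold the most.

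By series, 324 of 9462 tiles were high in TB (3.42%), 164 of 6320 in TA (2.59%) and 23 of 1266 in TC (1.82%). Counted in each replicate alone, the share above 2 was 4.18% ± 1.13 in TB, 3.13% ± 0.63 in TA and 2.29% ± 0.32 in TC (SD, n = 4). TB was above TA in every replicate, at 3.18%, 5.50%, 3.30% and 4.75% in TB and 2.55%, 3.97%, 2.77% and 3.23% in TA. The series medians did not follow the same order, with 0.50 in TB, -0.02 in TA and 0.44 in TC.

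Within TB, plates TB80 to TB89 had the highest share of the blocks of 10 plates that start at a number ending in 0, 49 of 951 tiles (5.15%), and TB90 to TB99 the lowest, 15 of 953 (1.57%). Their medians were 0.74 and 0.40. In TA the highest share was 3.93%, on TA90 to TA99. The lowest there was 1.77%, on the measured plates of TA60 to TA69, apart from TA20, which stood alone in its block with 1 high tile of 88. Of the stretches between the plates set aside, TA31 to TA36 had 13 high tiles of 556 (2.34%), among them TA33E02, the third highest of all. TA54 to TA56 had 7 of 286 (2.45%) although the median there was -0.75, and TA60 and TA61 had 2 of 188.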

How the data were processed

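The members, the lists and the tests were chosen with earlier results of these data known. The deposited value table holds the authors' processed log ratios for 21800 features on 8 arrays. Background correction, normalization, software and log base were not given in the sources used here, and the depth of signal over background is unknown. Of the features, 39 controls and 465 tiles had no value. Both arrays of a swap held identical numbers at all 21296 measured features. On 4 arrays the labels tag the channel named IP as input DNA too; source name and antibody were followed, and with equal values in both orientations this changes no number.

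Each replicate was centred on its median over all tiles. Each mean was tested against 0 with limma 3.58.1 (R 4.3.3; 3 residual degrees of freedom, Benjamini-Hochberg adjustment over all tiles), a step that was tested on simulated data. The rest was done in Python 3.11.15 (scipy 1.17.1, numpy 2.4.6, pandas 2.3.3). Missing wells and plates set aside break runs. Spacings are broken by plates set aside alone, and count the missing wells inside them. The 4 replicates limit the precision, and p-values count them as independent.

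Named were the 12 highest tiles, the 3 longest runs, the 5 lone tiles with the largest excess over their neighbours, the 3 fullest plates, the 5 tiles with the largest SD, and 3 tiles on each side of the threshold. Ties for the third longest run were settled by the mean, up to 5 runs. Other tiles named were chosen after their values were seen.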

Additional observations from a re-analysis of the deposited data

Results flagged for a closer look

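Among 47 sets of 4 replicate values examined, 1 had a replicate apart from the rest. TB54D01, the last tile of a run of 3, had 2.54 in III, against 2.11 to 2.18 in the other replicates, a gap of 0.842 of its whole range. Chance sets apart about 1 in 20 such groups.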

How the results depend on the processing

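The number of high tiles depends on the zero and on the threshold. Centred on the mode, or as deposited, 69 and 72 tiles passed 2, in 68 and 71 runs, on 54 and 56 plates, with median spacings of 132 and 127.5 wells. These settings put the median of all tiles at -0.62 and -0.61. Each lowers the mean of every tile by the same amount, so the tiles kept had to be among the 511. They gave 4822 and 4370 limma calls above 0, against 8985. Thresholds of 1.5 and 2.5 gave 1924 and 107 tiles, 1314 and 101 runs, and spacings of 7 and 103. A threshold of 2.5 left 74 plates. Requiring 2 in every replicate gave 256 tiles, 226 runs and a spacing of 48. Wells read down the columns gave a spacing of 19, and a flank difference of 0.17 against 0.87 along rows.

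Leaving out each replicate gave 475 to 564 tiles, 398 to 461 runs, spacings of 24.5 to 29, 159 to 165 plates, flank differences of 0.85 to 0.90 and 8682 to 8765 limma calls. With I and III, and II and IV, averaged first, because these resemble each other, the limma calls were 8080. The flank difference stayed above 0 under all settings run, from 0.17 to 1.19 (the low plates kept). The setting that subtracts plate medians, and the run lengths of low tiles under other zeros, were chosen after seeing the data. Quantile normalization kept 508 of the 511 tiles. Of the 41 named tiles, 36 moved by more than their SD over replicates when centred on the mode, and 36 with the values as deposited. Either setting shifts every tile's mean equally, so this count depends on the SD alone. The other 5 were the tiles with the largest SD. Centred on the mode, the longest run, TB55C11 to TB55D03, kept only TB55D02 above 2, at 2.02, and TB55D03 stood at 1.39.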

Other observations

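Outside the plates described, 8 of 3838 measured tiles on the plates set aside, 8 of 315 tiles of the PD series and 4 of 95 tiles of the single TD plate had a mean above 2.

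By well row, 85 of 2134 measured tiles in row D were high (3.98%), and in the other rows the share was 2.501% to 3.13%. Row D had the highest share above 2 in each replicate, at 3.47%, 5.44%, 3.66% and 4.92% in I to IV. The next row was at 3.41% (C) in I, 5.197% (H) in II, 3.41% (C) in III and 4.63% (H) in IV. By series, row D had 31 high tiles in TA, against 22 in the next row, F. In TB it had 51 against 48 in row C, and in TC 3 against 6 in row B. By well column, the share ran from 2.19% (column 10) to 3.58% (column 3).

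Of the 95 high tiles in which the mean of II and IV exceeded that of I and III by more than 0.5, 63 were on even-numbered plates, which held 273 of the 511, and 32 on odd-numbered plates, which held 238. The split was not counted over the other tiles of these plates, so it is not read as a trait of the high tiles.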
